A study of Mus musculus with 9 samples.

Results

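The circular RNAs (circRNAs) of 3 host genes, Ryr1, Ryr3 and Pde4dip, were followed through the differentiation of C2C12 cells, a mouse myoblast line that came from skeletal muscle. Members were all entries of the deposited circRNA table, of exon or intron type, whose Ensembl gene identifier is that of one of these genes. This gave 59 of 37751 circRNAs, with 16 from Ryr1, 25 from Ryr3 and 18 from Pde4dip, and 3 of 6943 host genes. Total RNA was sequenced from proliferating cells in fetal bovine serum before confluence (day 0), and at day 3 and day 6 after confluent cultures were moved to medium with horse serum, with 3 libraries per day and 9 in all. All libraries came from the same cell line with no transgene or drug, so myocytes and myotubes formed in culture without nerve or tissue. Whether the libraries of a day stem from separate cultures is not stated, and the p-values therefore reflect only how these libraries vary, which may be technical variation. In such bulk samples, fewer cells of a type and less RNA per cell cannot be told apart.

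Ryr1 encodes the channel that releases calcium from the sarcoplasmic reticulum of skeletal muscle when the voltage sensor of the surface membrane is depolarised, which starts contraction. Ryr3 encodes a related release channel found at low levels in many tissues and in developing muscle. Pde4dip encodes myomegalin, a large coiled-coil protein of the Golgi apparatus, the centrosome and the muscle sarcomere that anchors the cAMP-degrading phosphodiesterase PDE4D and is no calcium channel itself. A circRNA forms when splicing joins an exon's end to the start of an exon upstream of it, and the only sequence that marks it is this back-splice junction. The table counts reads across such junctions and no linear reads, so the values below describe circles and not the messenger RNAs of these genes.

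The junctions of 5 circles are shown because they are the sequences the counts refer to. They are the 4 circles present in all 9 libraries and the Ryr1 circle of exons 84 to 87, which overlaps the leading Ryr1 circle. The junction of a further Ryr1 circle with many reads, of intron type, is not shown, as it holds intron bases that transcripts do not contain. Each was assembled from GENCODE M21 transcripts (GRCm38), reads 5′ to 3′ on the minus strand, and gives 30 bases of the last exon in lower case followed by 30 bases of the first exon in capitals. All 3 genes and all 59 circRNAs lie on the minus strand. The innermost 40 bases of these junctions occur in 0 annotated transcripts.
Ryr1 exons 85 to 89 (chr7:29035980-29040893): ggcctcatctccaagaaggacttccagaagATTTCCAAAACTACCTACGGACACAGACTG
Ryr1 exons 84 to 87 (chr7:29040388-29043929): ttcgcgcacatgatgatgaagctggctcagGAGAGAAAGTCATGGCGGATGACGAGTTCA
Ryr3 exons 6 to 12 (chr2:112922425-112958250): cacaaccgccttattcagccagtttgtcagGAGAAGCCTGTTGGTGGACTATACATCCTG
Pde4dip exons 5 to 8 (chr3:97792739-97796808): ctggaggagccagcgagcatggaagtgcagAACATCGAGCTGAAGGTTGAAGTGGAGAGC
Pde4dip exons 4 to 8 (chr3:97792739-97824325): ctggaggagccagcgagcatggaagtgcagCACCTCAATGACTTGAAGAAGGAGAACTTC
Both Pde4dip circles close from the end of exon 8, so they share the lower-case bases and differ only in the exon they return to.

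In each gene 1 circle held more than the rest. Ryr1 (ENSMUSG00000030592, chr7:29003344-29125179) has 106 exons in transcript Ryr1-202, and the circle of exons 85 to 89, 593 nt long, held 4913 of its 5550 back-splice reads (88.5%). The intron downstream of exon 89 is the longest of the 105 introns of that transcript, at 11635 bp, against a median of 641 bp. In Ryr3 (ENSMUSG00000057378, chr2:112631355-113217096), numbered by the 104 exons of Ryr3-211, the circle of exons 6 to 12 (835 nt) held 343 of 659 reads (52.0%). It is the only member with a circBase identifier in the table, mm9_circ_010066. In Pde4dip (ENSMUSG00000038170, chr3:97689824-97888707), numbered by the 47 exons of Pde4dip-202, the circle of exons 5 to 8 (495 nt) held 1686 of 2504 reads (67.3%), and the circle of exons 4 to 8 (606 nt) held 639.

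Some splice sites closed several circles. The end of Pde4dip exon 8 closed 3 circRNAs with 93.2% of that gene's reads, and it is followed by an intron of 33808 bp, the second longest of 46, against a median of 1053.5 bp. The introns upstream of exon 5 (27406 bp) and of exon 4 (17308 bp) ranked 3 and 4 in length. The end of Ryr3 exon 12 closed 5 circRNAs with 61.9% of the gene's reads, and the intron after it, 10021 bp long, ranked 12 of 103. Of the 59 circRNAs, 52 had both ends at annotated exon edges within 1 transcript, and all exons inside those 52 circles are coding. The intron lengths are a description of these few circles and were not tested.

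**Figure D1:**
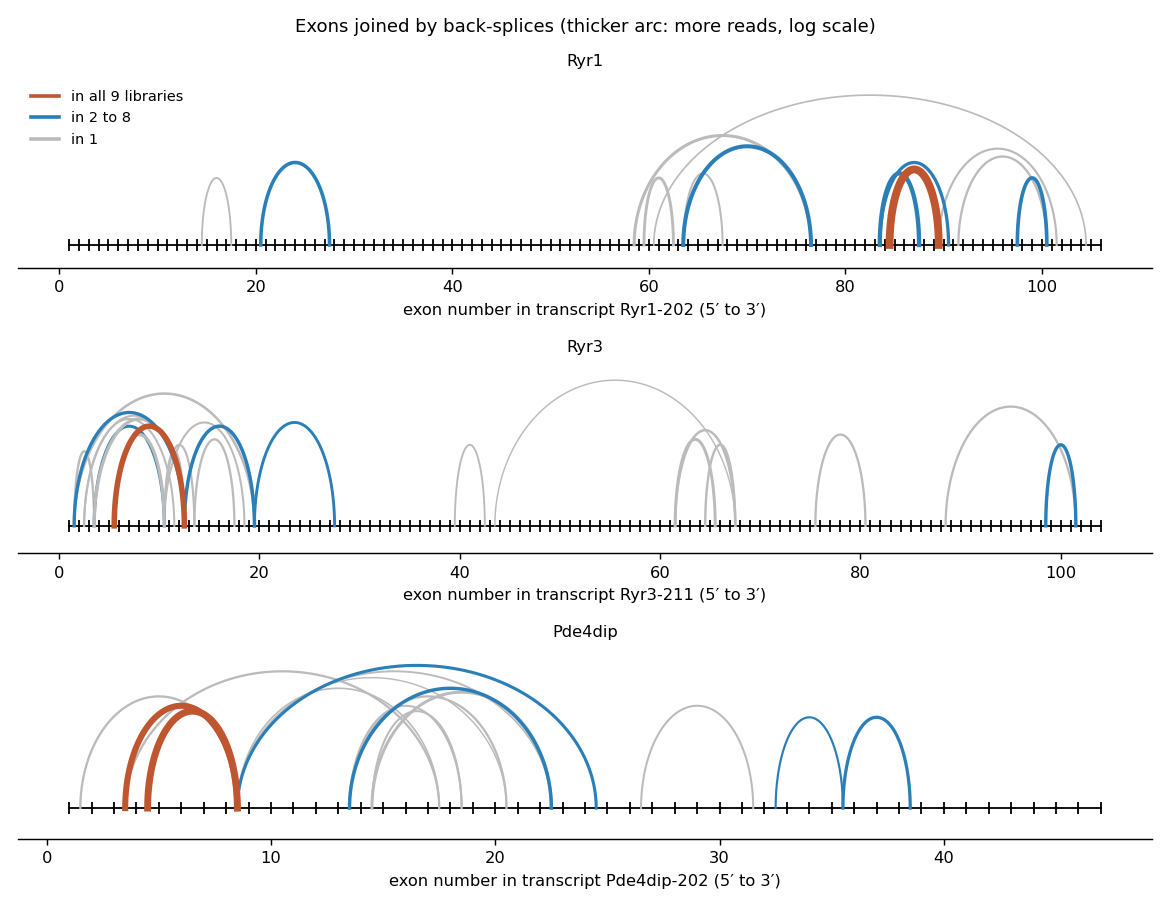
Back-splices of the 52 circRNAs with both ends at exon edges, by exon number (ticks on the line) in the transcripts Ryr1-202, Ryr3-211 and Pde4dip-202. Each arc runs from the first to the last exon of a circle and is higher with more exons spanned. It is thicker with more reads on a log scale and is coloured by the number of libraries that list it. The circles in all 9 libraries are Ryr1 exons 85 to 89, Ryr3 exons 6 to 12 and Pde4dip exons 5 to 8 and 4 to 8.

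Most other members were rare. Of the 59 circRNAs, 40 were listed in 1 library only, with 4 to 19 reads for Ryr1, 3 to 26 for Ryr3 and 3 to 18 for Pde4dip, and 4 were listed in all 9. The smallest count above 0 in the table is 2, so a single read appears as 0. The low-count filter kept 7 members of 8153 circRNAs tested, 4 from Ryr1, 1 from Ryr3 and 2 from Pde4dip, and all 3 hosts of 4135. Of those left out, the ones with the most reads were, in Ryr1, exons 98 to 100 (39 reads), 21 to 27 (34) and 84 to 90 (25). In Ryr3 they were exons 13 to 19 (31 reads), 99 to 101 (28), and 2 to 12 and 4 to 12 (26 each). In Pde4dip they were exons 14 to 22 (30 reads), 36 to 38 (24) and 9 to 24 (20).

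The libraries held 208787 to 443955 back-splice reads. Libraries of later days carried more circRNA reads of differentiated muscle hosts: the summed level of that marker list ran at 200 to 244 CPM (reads per library scaled to the same total) at day 0, 8248 to 9672 at day 3 and 9387 to 12517 at day 6. Of its 15 genes, 8 were tested, and Ttn, Tnnt1 and Dysf rose at both later days, while Myh4, Mybpc1 and Actn2 had no reads. The 14 proliferation hosts summed to 11288 to 13080 CPM at day 0, 2717 to 3242 at day 3 and 1165 to 1721 at day 6. Of 12 tested, 9 fell at day 6. Of all 4135 hosts tested, 163 were called at day 3 against day 0, 126 of them higher. At day 6 against day 0, 233 were called, 159 of them higher. The adipocyte and osteoblast list summed to 330 to 678 CPM, 495 to 878 CPM and 384 to 654 CPM at days 0, 3 and 6. Of its 11 genes, 8 were at 0 and Pparg and Runx2 held nearly all reads. Neuron markers reached at most 64.9 CPM, all from Map2, with the other 6 genes at 0. The part of these shifts in cell state in the results below was not tested.

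Circles of Ryr1, the release channel of skeletal muscle, rose at day 3 and stayed high at day 6. Summed over all its circRNAs, with reads scaled by TMM-adjusted totals, Ryr1 had 370, 205 and 121 CPM in the day 0 libraries, 2160, 2300 and 2742 CPM at day 3, and 4446, 3138 and 3421 CPM at day 6. No library of one day overlapped with those of another day. The log2 fold change was 3.36 ± 0.27 (SE) at day 3 against day 0 (adjusted p = 2.6e-11) and 3.97 ± 0.27 at day 6 against day 0 (adjusted p = 3.5e-13). All such values are from edgeR's quasi-likelihood F-test over all hosts or all circRNAs, with Benjamini-Hochberg adjustment and a threshold of 0.05. Among all hosts, 3.05% were called higher at day 3 and 3.85% at day 6. Leaving out any 1 library kept the day 6 change between 3.67 and 4.46.

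**Figure D2:**
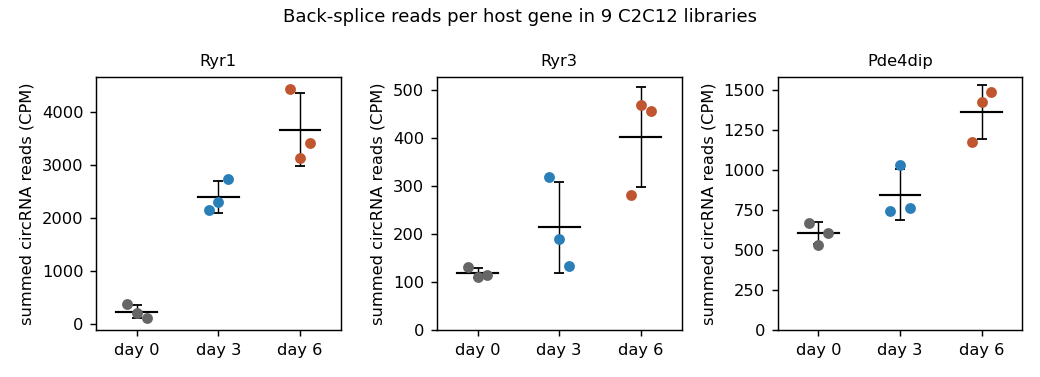
Back-splice reads per host gene, summed over all its circRNAs, in CPM on a linear axis; points are the 3 libraries of each day, horizontal lines are means and bars are ± 1 SD. Ryr1 lies at 121 to 370 CPM at day 0, 2160 to 2742 at day 3 and 3138 to 4446 at day 6.

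Most of the added Ryr1 reads lay at 1 junction. The circle of exons 85 to 89 had 124, 52 and 32 reads at day 0, 551, 586 and 783 at day 3, and 852, 657 and 1276 at day 6. It averaged 238 ± 134 CPM at day 0, 2039 ± 264 CPM at day 3 and 3171 ± 595 CPM at day 6 (SD, n = 3 each). Among the 8153 circRNAs tested it ranked 637 by mean level at day 0, 41 at day 3 and 19 at day 6. Its log2 fold change was 3.09 ± 0.26 at day 3 against day 0 (adjusted p = 2.5e-13) and 3.73 ± 0.27 at day 6 against day 0 (adjusted p = 1.9e-16).

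A longer form of this circle was listed at both later days and had no reads at day 0. It is classed as intron type, runs from the same start of exon 85 to 18 bp inside the intron after exon 89 (chr7:29035962-29040893), and had 0 reads in each day 0 library, 77, 54 and 59 at day 3, and 18, 43 and 70 at day 6. Every library of day 3 and day 6 held it. With each day 0 library set at a floor of 3 reads, its mean level was 18.5 times that floor at day 3 and 12.8 times at day 6. The edgeR test of no change against day 0 gave adjusted p = 1.5e-04 at day 3 and 2.5e-04 at day 6. The form passed the low-count filter only through the later days, so these p-values are no independent support. The day 6 call was lost in a fit of only those 2 days (adjusted p = 0.104). How reads were divided between ends 18 bp apart was not tested.

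The leading circle held all 208 Ryr1 reads at day 0, 83.0%, 89.5% and 84.2% at day 3, and 92.9%, 90.2% and 88.1% at day 6. At day 0 the longer form could hold up to 2.42%, 5.77% and 9.38% of Ryr1 reads in the 3 libraries under the limit of 3 counts that a count of 0 allows. It held 11.6%, 8.24% and 6.34% at day 3 (95% Wilson intervals 9.38 to 14.3%, 6.37 to 10.6% and 4.95 to 8.10%). It held 1.96%, 5.91% and 4.83% at day 6 (1.25 to 3.08%, 4.41 to 7.86% and 3.84 to 6.06%). The day 6 shares all lay below the day 3 shares, with an exact two-sided permutation p of 0.1, the smallest that 3 against 3 libraries can give, and 0.171 after adjustment over 12 comparisons of shares. Without counts of molecules, these intervals cover counting error only. The test within the host asks whether a circRNA changed by another factor than its gene as a whole. It left this form at an adjusted p of 0.348 at day 3 and 0.725 at day 6.

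The remaining Ryr1 circles were uneven between libraries. The circle of exons 84 to 87 starts 1 exon upstream of the leading circle and had 13, 0 and 40 reads at day 3 and 20, 4 and 7 at day 6, with 0 at day 0. The circle of exons 64 to 76 (chr7:29052014-29062224, 1669 nt) had 0, 6 and 6 reads at day 3, and 0, 0 and 47 at day 6, with 0 at day 0. Neither passed at day 3 (adjusted p = 0.422 and 0.477) or at day 6 (adjusted p = 0.354 for both). The libraries listed 1 Ryr1 circRNA each at day 0, 5, 4 and 6 at day 3, and 7, 6 and 7 at day 6 (exact permutation p = 0.1 for either later day against day 0, 0.225 adjusted over 9 comparisons). With more Ryr1 reads in the later libraries, more rare circles can be listed, and the part of read number in this count was not tested. In all, 9 and 13 of the 16 Ryr1 circRNAs were listed at day 3 and day 6, and 15 were not listed at day 0.

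**Figure D3:**
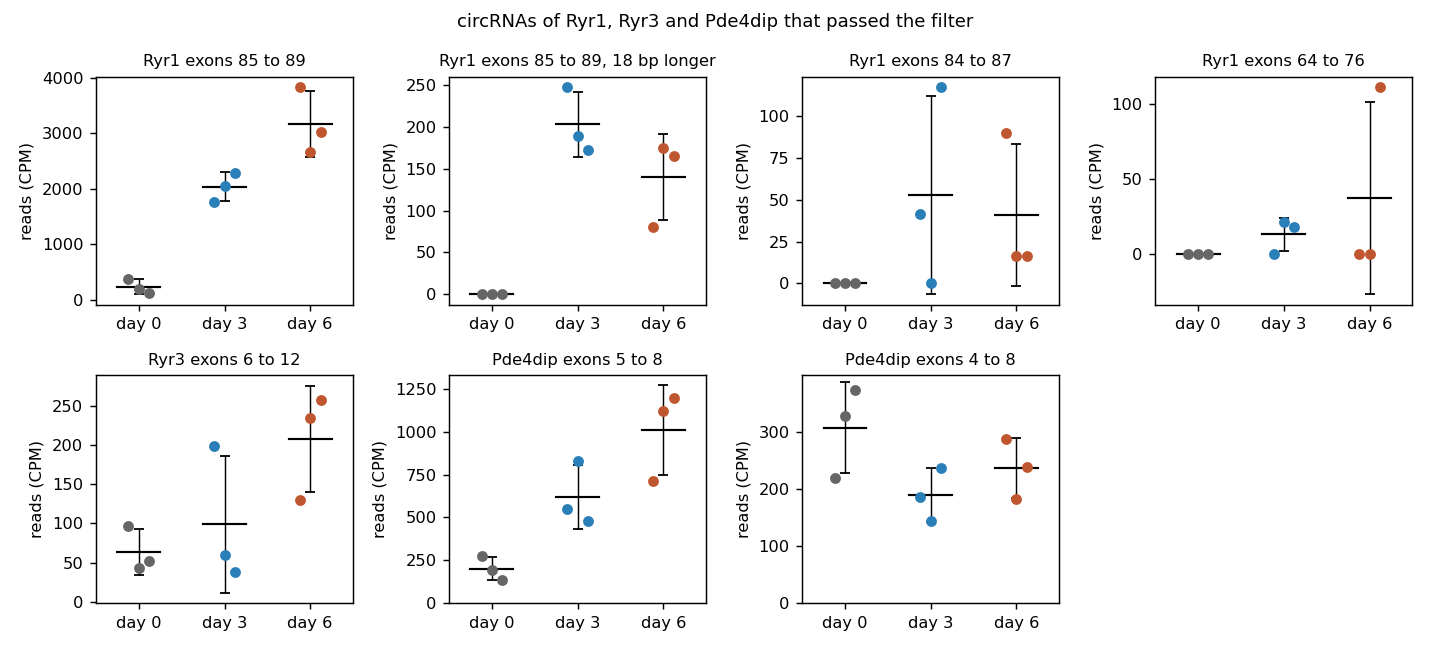
Levels of the 7 circRNAs of Ryr1, Ryr3 and Pde4dip that passed the filter, in CPM on a linear axis with a scale of its own in each panel; points are libraries, lines are means and bars are ± 1 SD (n = 3 per day). The Ryr1 circle of exons 85 to 89 and the Pde4dip circle of exons 5 to 8 are higher in every later library than in any day 0 library, and the 18-bp-longer Ryr1 form is at 0 at day 0.

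Ryr3 circles rose at day 6 against day 0, by a call near the threshold. The host sum was 131, 110 and 114 CPM at day 0, 319, 190 and 133 CPM at day 3, and 281, 470 and 456 CPM at day 6. Every day 6 library lay above every day 0 library, while day 3 overlapped with day 6. The log2 fold change was 0.85 ± 0.54 at day 3 against day 0 (adjusted p = 0.525) and 1.76 ± 0.54 at day 6 against day 0 (adjusted p = 0.0472). The direction held throughout, but the day 6 call was lost without any 1 day 0 library, without day 3 replicate 1 and without day 6 replicate 2 or 3 (adjusted p = 0.0679 to 0.194), and under several other settings. It rests on 58, 109 and 193 reads at day 6, against 44, 28 and 30 at day 0.

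The leading Ryr3 circle of exons 6 to 12 had 31, 11 and 13 reads at day 0, 62, 17 and 13 at day 3, and 29, 58 and 109 at day 6. In CPM it averaged 63.7 ± 29.1 at day 0, 98.9 ± 87.4 at day 3 and 208 ± 68.2 at day 6. The groups at day 6 and day 0 did not overlap, but the change missed the threshold at day 3 against day 0 (0.63 ± 0.91, adjusted p = 1) and at day 6 against day 0 (1.70 ± 0.93, adjusted p = 0.354). Day 3 replicate 1 alone stood high, and without it the day 3 value was -0.40. The circle held 50.0%, 53.2% and 56.5% of Ryr3 reads at day 6, against 70.5%, 39.3% and 43.3% at day 0, a difference in means of 2.20 percentage points (exact permutation p = 1). Over reads of exon type alone the difference was -22.1 points, since 2 of the day 0 libraries held 13 and 15 reads of intron type.

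The other Ryr3 circles lay along the whole gene, from exon 2 to exon 101. Counted with the leading circle, the libraries listed 2, 2 and 3 Ryr3 circRNAs at day 0. The numbers were 4, 6 and 5 at day 3, and 4, 7 and 7 at day 6. Of all 25 Ryr3 circRNAs, 20 were not listed at day 0. Both intron-type Ryr3 entries were seen at day 0 alone, each in 1 library, with 13 reads in replicate 1 and 15 in replicate 3. Reads outside the leading circle numbered 29, 51 and 84 at day 6, against 13, 17 and 17 at day 0.

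Pde4dip circles rose by day 6, and of its 2 main circles the one of exons 5 to 8 passed the test. The host sum was 671, 532 and 607 CPM at day 0, 745, 1029 and 764 CPM at day 3, and 1173, 1427 and 1488 CPM at day 6, with no overlap between days. It was higher at day 6 than at day 0 by 1.18 ± 0.26 on the log2 scale (adjusted p = 0.0024), and the difference at day 3 against day 0, 0.49 ± 0.26, did not pass (adjusted p = 0.396). Without the circle of exons 5 to 8, the summed Pde4dip value was -0.88 at day 3 and -0.40 at day 6, neither past the threshold (adjusted p = 0.391 and 0.805).

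The circle of exons 5 to 8 had 87, 50 and 34 reads at day 0, 171, 237 and 164 at day 3, and 159, 277 and 507 at day 6. That is 200 ± 68.5 CPM at day 0, 620 ± 186 CPM at day 3 and 1013 ± 261 CPM at day 6, and the later libraries all lay above the day 0 libraries. It rose by 1.63 ± 0.36 at day 3 against day 0 (log2, adjusted p = 0.0051) and by 2.34 ± 0.37 at day 6 against day 0 (adjusted p = 1.1e-05). The day 3 call was lost without day 3 replicate 2 (1.36, adjusted p = 0.0885) and in a fit of only those 2 days (1.61, adjusted p = 0.129). Its rank by mean level among 8153 circRNAs was 781 at day 0, 223 at day 3 and 97 at day 6.

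The circle of exons 4 to 8, which shares its closing end, had 70, 85 and 94 reads at day 0, 58, 41 and 81 at day 3, and 64, 45 and 101 at day 6. It averaged 307 ± 79.8 CPM at day 0, 189 ± 46.9 CPM at day 3 and 236 ± 52.5 CPM at day 6. The groups overlapped, and its log2 fold changes of -0.69 ± 0.56 at day 3 (adjusted p = 0.757) and -0.38 ± 0.56 at day 6 (adjusted p = 0.992) against day 0 did not pass. At day 0 it ranked 474, above the circle of exons 5 to 8 at 781, and at day 6 it ranked 693.

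The share of Pde4dip reads in the shorter of these circles did not overlap between day 0 and the later days. The circle of exons 5 to 8 held 38.7%, 37.0% and 21.3% of Pde4dip reads at day 0, 74.7%, 80.9% and 63.3% at day 3, and 65.7%, 83.7% and 80.5% at day 6. The mean difference was 40.6 percentage points at day 3 and 44.3 at day 6 against day 0, with no overlap and an exact two-sided permutation p of 0.1 for each, the smallest possible (0.171 adjusted over 12). Of the reads of the 2 circles alone, a pair chosen after the values were seen and so not tested, the shorter one took 55.4%, 37.0% and 26.6% at day 0, 74.7%, 85.3% and 66.9% at day 3, and 71.3%, 86.0% and 83.4% at day 6. The test within the host across all circRNAs did not pass. At day 6 against day 0 the circle of exons 5 to 8 changed by 0.72 and that of exons 4 to 8 by -1.16. These are natural logs, relative to a value fitted over both tested Pde4dip circles (test within the host, unadjusted p = 0.0648 and 0.0218, adjusted p = 0.725 for both).

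**Figure D4:**
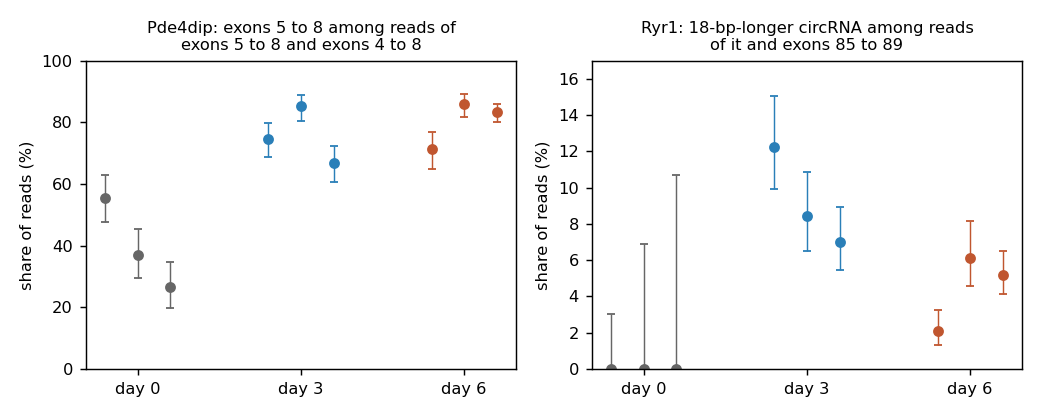
Share of reads, in percent, by library and day, with 95% Wilson intervals that cover counting error only. Left, the Pde4dip circle of exons 5 to 8 among the reads of that circle and of exons 4 to 8, from 26.6 to 55.4% at day 0 and from 66.9 to 86.0% in later libraries; right, on a scale up to 17%, the 18-bp-longer Ryr1 form among its own reads and those of exons 85 to 89, at 0 at day 0.

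The number of Pde4dip circles listed overlapped between days. The libraries listed 9, 2 and 5 at day 0, 2, 5 and 4 at day 3, and 4, 4 and 4 at day 6. Of its 18 circRNAs, 12 were listed at day 0, 6 at day 3 and 8 at day 6. Reads outside the leading circle were 411, 335 and 478 CPM at day 0, 189, 197 and 280 CPM at day 3, and 402, 233 and 291 CPM at day 6.

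Counted over the 7 tested circRNAs of the 3 genes, 3 were called higher at day 3, where 1.31% of all circRNAs tested were, and the same 3 at day 6, against 1.47% of all. These were the 2 Ryr1 forms that start at exon 85 and the Pde4dip circle of exons 5 to 8. The other 4 did not pass at either day. The comparisons share the day 0 libraries, so the second count is not independent of the first. The longer Ryr1 form and the Ryr1 circles of exons 84 to 87 and 64 to 76 had 0 reads at day 0. They passed the filter only through the later days. The 2 called Ryr1 forms differ by 18 bp at 1 end, and how reads were divided between them was not tested. The members were chosen with earlier results known, so these counts do not test whether the genes stand out. In the test within the host, 0 of 6 members passed at any comparison, against 0.0916% of 6549 circRNAs at day 3 and 0.153% at day 6 against day 0, and 0.0153% at day 6 against day 3. At an unadjusted p under 0.05, edgeR's test within the host had 1, 2 and 0 of the 6 in these comparisons, beside 336, 393 and 229 of all 6549 circRNAs.

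Between day 6 and day 3 no member changed by the adjusted test. The host differences were 0.61 ± 0.24 for Ryr1, 0.69 ± 0.25 for Pde4dip and 0.91 ± 0.53 for Ryr3 on the log2 scale, each with an adjusted p of 0.736. Of all hosts, 0.0726% were called in either direction in this comparison, and of all circRNAs 0.0613%. With edgeR, 0 of 3 hosts and 0 of 7 circRNAs were called, and 2 hosts and 2 circRNAs had an unadjusted p under 0.05, beside 246 of all 4135 hosts and 354 of all 8153 circRNAs. DESeq2 also called 0 of each, with 2 hosts and 1 circRNA at an unadjusted p under 0.05, beside 324 and 440 of all. The circle of Ryr1 exons 85 to 89 had a value of 0.64 ± 0.24 (adjusted p = 0.664), with day 6 libraries at 3827, 2665 and 3021 CPM, against 1769, 2054 and 2295 CPM at day 3. These groups did not overlap.

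Other hosts of calcium handling and relatives of Pde4dip are given beside these genes by a list. The list has 64 genes by role, holds Ryr1 and Ryr3 but not Pde4dip, and had 44 genes with a circRNA and 35 tested. Of the 64, 10 are listed as anchors, cAMP enzymes and centrosome relatives of Pde4dip, with 9 tested, and Akap6 is among these. Only Ryr1 was called higher at day 3, and Ryr1, Ryr3 and Akap6 were called higher at day 6, with 0 called lower. Without Ryr1 and Ryr3, 0 and 1 of 33 tested were called higher, a count near the 3.05% and 3.85% of all hosts. The median log2 fold change of the 33 tested genes other than Ryr1 and Ryr3 was 0.74 at day 3 and 0.65 at day 6 against day 0, beside -0.02 and -0.13 for all 4135 hosts. With genes at 0 on a day set at a floor of 3 reads per library of that day, these 33 genes had medians of 0.74 and 0.72. Some of the 33 rest on few reads, such as Itpr3 with 49 and Srl with 41 over all libraries. The list was chosen with earlier results known, and a shift of it as a set was not tested. Akap6 encodes an anchor that holds protein kinase A at the nuclear envelope and near ryanodine receptors in muscle. Its circles had 97, 59 and 144 reads at day 6, against 18, 0 and 6 at day 0 (3.74 ± 0.89, adjusted p = 0.0058), a call lost in a fit of only those 2 days (adjusted p = 0.0505).

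Of the release channels, Ryr2, the heart form, had no circRNA reads. Itpr2, an inositol trisphosphate receptor that releases calcium from the endoplasmic reticulum, had more circle reads than Ryr3, at 658 ± 155 CPM at day 0, 896 ± 91.3 CPM at day 3 and 925 ± 240 CPM at day 6. Its values of 0.45 at day 3 and 0.50 at day 6 did not pass (adjusted p = 0.508 and 0.336). Itpr1 averaged 43.2 ± 20.4 CPM at day 0, 120 ± 20.3 CPM at day 3 and 51.8 ± 35.3 CPM at day 6, and Itpr3 had day means of 10.1 to 21.4 CPM, with no call for either. Back-splice reads are counted per circle, so these levels do not compare the abundance of the channels.

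Of the 15 partners of the channel in the sarcoplasmic reticulum, 5 were tested, too few to set their calls beside the 3.05% and 3.85% of all hosts called higher. Asph, whose gene also encodes junctin, a protein that links calsequestrin to the channel, had the most reads, at 3454 ± 290 CPM at day 6, against 3169 ± 451 CPM at day 0 (0.12, adjusted p = 0.881). Casq2, a calsequestrin that binds calcium inside the store, had 161 ± 22.0 CPM at day 6, against 10.5 ± 18.2 CPM at day 0, with an adjusted p of 0.239. Casq1 and Stac3 had no circRNA reads, and Cacna1s, the voltage sensor itself, had 4 reads in all. Among relatives of Pde4dip, its paralogue Cdk5rap2, a centrosome protein, had 619 ± 141 CPM at day 6, against 443 ± 48.1 CPM at day 0 (0.48, adjusted p = 0.535). Pde4d, the phosphodiesterase that myomegalin anchors, had 975 ± 43.7 CPM at day 6, against 815 ± 139 CPM at day 0 (0.26, adjusted p = 0.732).

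The hosts whose log2 CPM followed each gene most closely over the 9 libraries were named by Pearson correlation, as a description in which all hosts share libraries and the 3 days. For Ryr1 they were Lrp4 (0.995), Ghr (0.994), Fndc1 (0.992), Utrn (0.991) and Dock4 (0.973). Lrp4 encodes the agrin receptor of the neuromuscular junction and Utrn encodes utrophin, a relative of dystrophin. For Pde4dip they were Pex19 (0.951), Kansl1l (0.943), Erbin (0.933), Epb41l5 (0.931) and Patj (0.927). Pex19 had 0 CPM at day 0 and averaged 87.4 CPM at day 6, far under Pde4dip. For Ryr3 they were Ppfibp2 (0.984), Fbxo16 (0.961), Foxn3 (0.957) and Slc35b3 (0.936). Of these last, Ppfibp2, Fbxo16 and Foxn3 had 0 reads at day 0 and averaged under Ryr3 at day 6, between 32.1 and 64.9 CPM. Between the 3 genes themselves the correlation was 0.874 for Ryr3 and Pde4dip, 0.813 for Ryr1 and Pde4dip, and 0.758 for Ryr1 and Ryr3.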

How the data were processed

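The authors deposited 1 table of raw counts of back-splice reads per circRNA and library, with locus, type and host gene. BWA and the build GRCm38.p4 (mm10) are named, per the submitters' processing notes. Per the labels' protocols, RNA was extracted with TRIzol and passed through a bead clean-up and DNase. For the circRNA caller, its filters and duplicate reads, the method is not given in the sources used here. All columns were mapped to samples by name. No 2 libraries of a day held the same counts (chi-square per degree of freedom 11.7 to 14.6).

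Counts per circRNA, and counts summed per host, were tested with edgeR 4.0.16 (R 4.3.3) with TMM factors, filterByExpr (minimum count 5, minimum total 15), all 9 libraries in 1 fit, group means and no block. The filter kept 86.2% of reads at circRNA level and 98.4% of host reads. SE was taken as |log2 fold change| over the square root of F, since edgeR gives none. CPM are scaled by TMM-adjusted totals, of all circRNAs for circles and of host sums for hosts, so levels of a circle and its host can differ slightly. Differences within a host used diffSpliceDGE, which compares a circRNA with a value fitted over all tested circRNAs of the host. They are given as natural logs. For shares and numbers of circles, an exact permutation test (two-sided) was used. The scripts were tested on simulated data with known changes. DESeq2 1.42.0 and other alternatives are given in the closing part. Exon numbers and junctions are from GENCODE M21. The members and gene lists were chosen with earlier results of these data known. Named were all 3 hosts, each circRNA that passed the filter, the 3 with the most reads per host that did not (4 for Ryr3, with a tie), the release channels and examples from the calcium list, and the 5 most similar hosts, of which 1 is not reported here.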

Additional observations from a re-analysis of the deposited data

How the results depend on the processing

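The calls of Ryr1 at both later days and of Pde4dip at day 6 against day 0 kept their direction and passed under every scaling, filter, test, 2-day fit and left-out library, while Pde4dip at day 6 did not pass and changed sign without its leading circle. Host sums without the leading circles gave -0.021 for Ryr1 at day 6 against day 3, and -0.88 and -0.40 for Pde4dip at day 3 and day 6 against day 0. None of these values passed the threshold. Ryr1 still passed at both days against day 0 without its leading circle, but its day 0 libraries were then at 0, so the value depends on the prior count and no fold is given. The Ryr3 value at day 6 against day 0 did not pass by library size (1.63), with a minimum count of 10 (1.74), with no filter (1.77), in a 2-day fit (1.73), without the leading circle (1.71), or with a replicate block (1.79, adjusted p = 0.0553). Leaving out single libraries gave 1.63 to 1.97 for it, and 1.63 to 1.82 where the call was lost. The cause was not tested. The replicate block changed no other call. Same-numbered libraries did not deviate together (host correlations -0.033 to -0.00052), and differently numbered ones lay at -0.024 to 0.042. This gave no sign of pairing by number, but deviations over many hosts of low count cannot exclude it.

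Among reads of exon type, the leading Ryr1 share differed by -6.24 and -5.57 points at day 3 and day 6 against day 0 and 0.67 at day 6 against day 3, and the Ryr3 share by -34.1 and -22.1, as 13 and 15 Ryr3 reads of 2 day 0 libraries are of intron type. Counting only circRNAs in at least 2 libraries, Ryr1 listed 3 and 3.67 more than at day 0 and 0.67 more at day 6 than at day 3, and Ryr3 1 and 2 more than at day 0. Uncalled values that changed sign were those of Ryr1 exons 84 to 87 at day 6 against day 3 (0.53 with the block, -1.65 to 0.92 without single libraries, and 0.0072 and -1.47 to 0.18 relative to its host), Ryr1 exons 64 to 76 relative to its host (-0.31 with the block), Ryr3 exons 6 to 12 at day 3 (-0.40 to 1.05) and Pde4dip exons 5 to 8 relative to its host at day 6 against day 3 (-0.011 to 0.12). Values relative to a host are natural logs. The median of all hosts at day 3 and day 6 against day 0 was -0.02 and -0.13, and -0.15 and -0.24 by library size. No scaling turned the direction of a host value. Low counts limit the rare circles: 40 of 59 rest on 1 library, and the part of depth in this was not tested.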

Other observations

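Few circRNAs of intron type had 1 end at an exon edge and the other close to an edge, on either side of it. Of 3761 such circRNAs with a host, 149 (3.96%) had 1 end at an exon edge and the other within 30 bp of an edge. In 74 (1.97%) an exon-type circRNA shared 1 end and had its other end within 30 bp, and 4 of these 74 were listed in 6 or more libraries. The 18-bp-longer Ryr1 form had the most reads of the 74, and ranked 40 by reads among all intron-type circRNAs with a host.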
